A study of Homo sapiens with 12 samples.

Results

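The genotype by LPS interaction describes how far the response of a gene to lipopolysaccharide (LPS) differs between THP-1 cells with wild-type NFKB1 and THP-1 cells with the S80A form. It was computed for all 3281 genes of the authors' 2 lists of LPS responses, which hold 2335 genes for wild-type and 2508 for S80A cells and share 1562. No other genes are analysed here. For each gene the mean log2(scaled reads + 1) of the 3 libraries of a group was taken, where scaled reads are counts corrected by a size factor of each library. The interaction is the change from 0 hr to 3 hr in S80A cells minus the same change in wild-type cells. It equals the difference between S80A and wild-type cells after LPS minus their difference at rest, so a called interaction can be traced to the resting level, to the level reached with LPS, or to both.

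THP-1 cells come from a human monocytic leukaemia and turn macrophage-like when treated with the phorbol ester PMA. NFKB1 encodes p105 and its product p50, a subunit of NF-κB, and S80A cells carry alanine, which cannot be phosphorylated, in place of serine 80. All 4 groups received PMA at 25 ng/ml for 72 hr and then 4 days without it, and each group had 3 libraries. The groups were wild-type and S80A cells at 0 hr, and wild-type and S80A cells after 3 hr with LPS at 10 ng/ml. The labels do not say how the S80A line was made or whether it is 1 clone, so the S80A form cannot be told apart from other differences between the lines. Nor do they say whether replicates came from different cultures, and all p-values rest on the spread among these libraries, which may be technical.

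LPS is sensed by TLR4 and its co-receptors, which signal through MyD88 to the IκB kinases and through TRIF to interferon regulatory factors. The kinases release NF-κB dimers, among them p50 with p65, which bind κB sites and induce cytokines, chemokines, adhesion molecules and their own inhibitors. The p50 subunit has no transactivation domain, and its homodimers can occupy κB sites without activating them. A response measured as a change from rest thus depends on the starting level as well as on the level reached.

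Reads on the listed genes ranged from 1924562 to 5789918 per library, and these totals leave out all other genes. S80A replicate 1 stood apart at both times, with scores of 16.7 and 16.9 on the second principal component against 32.7 to 46.7 for the other S80A libraries. The median SD of log2 values within a group was 0.208 and 0.242 in wild-type cells at 0 and 3 hr, and 0.358 and 0.379 in S80A cells. Of 12 macrophage and monocyte markers 3 were among the listed genes, namely CD14 at 2285, 2550 and 2630 scaled reads in wild-type and 2245, 6211 and 3530 in S80A cells at rest, CD163 at 1387, 2472 and 3031 and 1045, 1134 and 867, and MERTK, described with its list, and of 22 markers of other cell types only CD79B was, at 18.6 to 45.8 scaled reads at rest. CD163, a scavenger receptor gene, was 2.26-fold lower in S80A cells at rest (adjusted p = 0.00984), with no overlap between the genotypes. Neither the CD14 nor the CD163 interaction was called (0.18 and 0.59). In RNA from a whole culture, fewer cells of a type and less RNA per cell cannot be told apart.

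NFKB1 itself had no called difference between genotypes at either time, and the groups overlapped at both. It was at 848, 791 and 986 scaled reads in wild-type and 759.9, 928 and 1062 in S80A cells at rest. After LPS it was at 22660, 24060 and 23150 and at 28400, 21620 and 19570. The interaction was -0.08 ± 0.25 log2 (SE) with a 95% interval of -0.63 to 0.47 and an adjusted p of 0.832 from limma, the test used throughout. NFKB1 lies on chromosome 4 from 102501329 to 102617302 on GRCh38, and an exchange of 1 residue leaves no mark in its read count.

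The response to LPS differed between genotypes for 508 of the 3281 genes at a Benjamini-Hochberg adjusted p under 0.05, which is 15.5% of them. It was higher in S80A cells for 260 genes (7.92%) and lower for 248 (7.56%). A higher response could be a steeper rise or a smaller fall. Of the 260 genes, 100 rose in both genotypes, 91 rose in S80A cells without a called change in wild-type cells, and 12 fell in wild-type and rose in S80A cells. The other 57 fell in wild-type cells and either fell in S80A cells too (22) or had no called change there (35). Of the 248 genes with a lower response, 71 rose in both genotypes, 72 rose in wild-type cells without a called change in S80A cells, and 14 rose in wild-type but fell in S80A cells. A further 34 fell in both genotypes and 57 fell in S80A cells without a called change in wild-type cells. Since all genes were listed for a response, limma called a change for most of them, namely 2894 (88.2%) in wild-type cells, 51.9% rising and 36.3% falling, and 2914 (88.8%) in S80A cells, 51.8% rising and 37.0% falling.

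These counts depended on the scaling, on single libraries and on how the spread was estimated. With TMM scaling over the listed genes, an alternative to the deposited size factors, 220 interactions were higher and 271 lower. Samples with the same replicate number at 0 and 3 hr deviated together within each genotype, and with that number as a block within genotype, called the blocked fit from here on, 766 interactions were called, 394 higher and 372 lower, including 493 of the 508. Without S80A replicate 1 at both times, 886 were called, 426 higher and 460 lower, including 482 of the 508. Leaving out 1 of the other libraries gave as few as 281 calls, without wild-type replicate 2 at 3 hr. With wild-type replicate 1, 2 or 3 at 0 hr left out the count was 332, 319 or 286. It was 310 when wild-type replicate 3 at 3 hr was left out, and 291 and 326 for S80A replicate 2 at 0 and 3 hr. All 508 kept their sign in each of these fits, and 243 stayed called in each of the 12 fits that left out 1 library.

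Being listed for a response in 1 genotype alone favours a called interaction, because the lists were made from the same libraries. Of the 1562 genes in both lists 139 (8.90%) had one, of the 773 in the wild-type list alone 150 (19.4%), and of the 946 in the S80A list alone 219 (23.2%). Among genes of the wild-type list alone, 51 interactions were higher and 99 lower, and among genes of the S80A list alone, 137 were higher and 82 lower. Read against this selection, the calls describe the listed genes and not the transcriptome. When only genes of both lists were tested, 78 interactions were called, 44 higher and 34 lower.

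More genes were called different between genotypes after LPS than at rest. At rest 1114 genes (34.0%) differed, 739 higher (22.5%) and 375 lower (11.4%) in S80A cells. After LPS 1685 genes (51.4%) differed, 1024 higher (31.2%) and 661 lower (20.1%). The balance of higher and lower rested on the scaling: with TMM scaling over the listed genes, which shifted the median difference from 0.19 to 0.02 log2 at rest and from 0.19 to -0.04 after LPS, there were 561 higher and 512 lower at rest, and 809 and 846 after LPS. Of the 1114 genes that differed at rest, 691 (62.0%) differed the same way after LPS, 37 (3.32%) differed the opposite way, and 386 (34.6%) were not called after LPS. A called interaction was present for 211 of the 1114 (18.9%). Across all 3281 genes, which are not independent replicates, the differences at rest and after LPS had a Pearson r of 0.572 (Spearman rho 0.574), and both use the same wild-type and S80A lines.

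The 508 interactions fell into 5 classes by which level differed. The level reached with LPS differed and the resting level was not called for 285 genes (56.1%), 160 with a higher and 125 with a lower response in S80A cells. The resting level differed and the level after LPS was not called for 113 genes (22.2%), 43 with a higher and 70 with a lower response. With TMM scaling the balance changed to 127 higher and 141 lower for the level reached, and to 49 and 74 for the resting level. Both levels differed for 98 genes, in opposite directions for 37 (7.28%) and in the same direction for 61 (12.0%). Neither level was called for 12 genes (2.36%). The absolute difference was larger after LPS than at rest for 347 of the 508 (68.3%), against 2002 of all 3281 genes (61.0%).

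**Figure D1:**
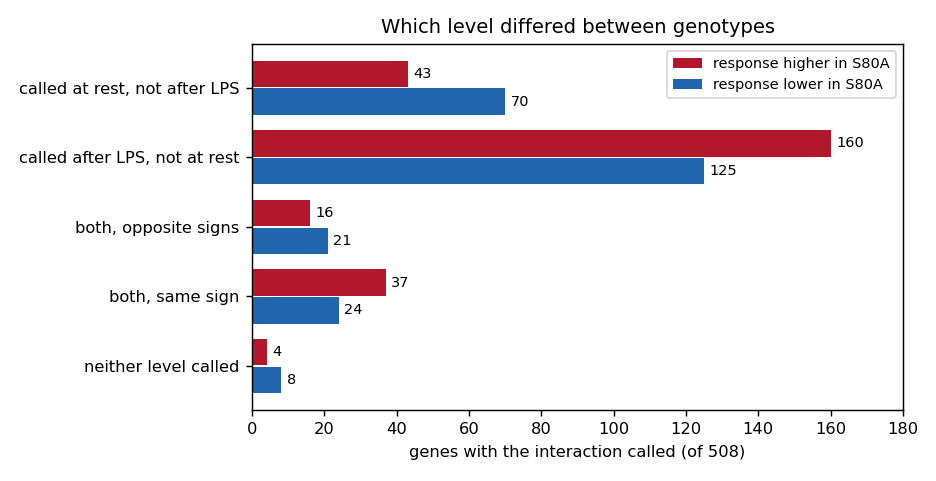
Number of genes with a called interaction (x axis) in each of 5 classes (y axis), with 1 bar for a higher and 1 for a lower response in S80A than in wild-type cells. The longest bars are the 160 and 125 genes that differed after LPS and were not called at rest. With TMM scaling, not drawn, these were 127 and 141.

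The classes were set by thresholds, and some genes lay near them. Of the 285 genes traced to the level reached, 215 differed by less than 0.5 log2 at rest, 12 by 1 log2 or more, and 33 had an adjusted p at rest between 0.05 and 0.1. For 44 of them at most 3 reads were counted at rest over the libraries of each genotype, so a resting difference was not detectable at this depth. Of the 113 traced to rest, 80 differed by less than 0.5 log2 after LPS, 6 by 1 log2 or more, and 17 had an adjusted p after LPS between 0.05 and 0.1. Values of the 2 genotypes did not overlap at rest for 111 of these 113 genes, against 49.1% of all genes, and after LPS for 23, against 59.0%. For the 285 genes, values did not overlap at rest for 67 and after LPS for 282. Since these tests used the same libraries that set the classes, the counts are a description. The interaction itself was last called for MMP12 (adjusted p = 0.0498) and first missed for GADD45B (0.05).

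**Figure D2:**
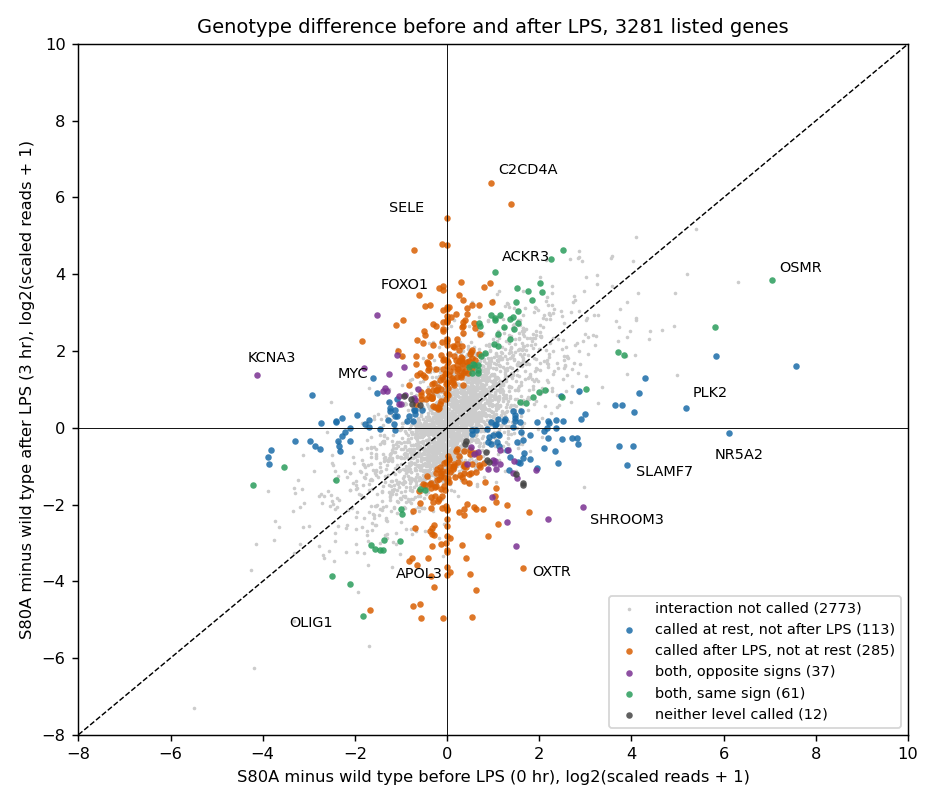
Difference between S80A and wild-type cells at rest (x axis) and after 3 hr with LPS (y axis), both in log2(scaled reads + 1), for each of the 3281 genes, with called interactions coloured by class and the dashed line marking equal differences. Genes called after LPS and not at rest lie along the vertical line at 0, genes called at rest and not after LPS lie along the horizontal line, and genes without a called interaction, in grey, lie around the dashed line.

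The 37 genes whose difference changed sign include KCNA3, which encodes a voltage-gated potassium channel of immune cells and had the lowest adjusted p of these genes. KCNA3 stood at 78.8, 92.5 and 85.5 scaled reads in wild-type and 4.98, 3.88 and 3.15 in S80A cells at rest. After LPS the libraries held 509, 387 and 424 in wild-type and 1237, 1399 and 829.7 in S80A cells, so the S80A values were below all wild-type values at rest and above all of them after LPS. The rise was 5.14-fold in wild-type and 289-fold in S80A cells, an interaction of 5.49 ± 0.35 log2 (SE, adjusted p = 3.73e-06). CCRN4L (present symbol NOCT), which encodes the circadian enzyme nocturnin, showed the same crossing. Its values went from 223, 252 and 251 to 1103, 1297 and 1402 in wild-type cells and from 68.7, 65.9 and 71.4 to 3346, 4522 and 3308 in S80A cells (3.35 ± 0.25, adjusted p = 1.31e-05).

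Crossing in the same direction was seen for a transcription factor and 3 secreted factors. MYC, a growth-promoting transcription factor gene, fell 1.44-fold in wild-type cells, from 1854, 2358 and 1859 to 1301, 1323 and 1587 scaled reads. In S80A cells it rose 3.54-fold, from 899, 766 and 660.2 to 3294, 2162 and 2766, an interaction of 2.34 ± 0.28 (adjusted p = 0.000631). IL10, the anti-inflammatory cytokine gene, went from 30.3, 27.4 and 40.3 to 192, 96.5 and 132 in wild-type and from 26.9, 12.4 and 9.45 to 426, 633 and 474 in S80A cells. These are rises of 4.28-fold and 31.4-fold (2.97 ± 0.52, adjusted p = 0.0042). IL18, whose product is cut to its active form by the inflammasome, was at 203, 213 and 215 and 130.5, 122 and 152 at rest and at 344, 310.4 and 278 and 624, 654 and 613 after LPS, wild-type before S80A cells. The S80A values of IL18 were thus the lower ones at rest and the higher ones after LPS (1.66 ± 0.24, adjusted p = 0.00161). CXCL2, a neutrophil-attracting chemokine gene, rose 191-fold in wild-type and 1370-fold in S80A cells (2.65 ± 0.54, adjusted p = 0.00853). It had 36 reads at rest over the wild-type and 11 over the S80A libraries, so these folds are poorly determined. Its resting values, 6.93, 6.43 and 16.1 and 2.99, 1.55 and 6.30 scaled reads, nearly touched. After LPS it was at 2125, 1810 and 1710 and 5565, 4217 and 5064. ABTB2 and ZEB2, a transcription factor gene, crossed the same way (2.52 and 1.61).

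The reverse crossing, high in S80A cells at rest and low after LPS, was seen for 21 genes. KLF4, a transcription factor gene of monocyte differentiation, was at 1235, 1208 and 1420 in S80A against 548, 528 and 473 in wild-type cells at rest. The levels with LPS were 274, 240.4 and 290.1 against 321, 457 and 432, a fall of 4.80-fold in S80A cells and an interaction of -1.89 ± 0.25 (adjusted p = 0.00118). BMP2K, a kinase gene, went from 1251, 1065 and 1172 to 2064, 2389 and 2122 in wild-type cells and from 2285, 2452 and 3012 to 1414, 1052 and 990.3 in S80A cells (-2.09 ± 0.25, adjusted p = 0.000631). SLC2A3, a glucose transporter gene, rose from 66.7, 80.4 and 62.1 to 258, 479.6 and 299.8 in wild-type cells, while S80A cells held 174, 191 and 206 and then 193, 161 and 99.5. LFNG, which encodes a sugar transferase that modifies Notch receptors, and LINC01137, a non-coding RNA gene, had interactions of -2.12 and -2.32. SHROOM3, an actin regulator gene, was at 2.60, 0 and 0.807 and 1.99, 32.6 and 29.4 at rest and at 3729, 2340 and 2001 and 1193, 418 and 475 after LPS. Its S80A replicate 1 lay among the wild-type values at rest and between the groups after LPS, and its interaction was -5.03 ± 1.13 (adjusted p = 0.0129).

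**Figure D3:**
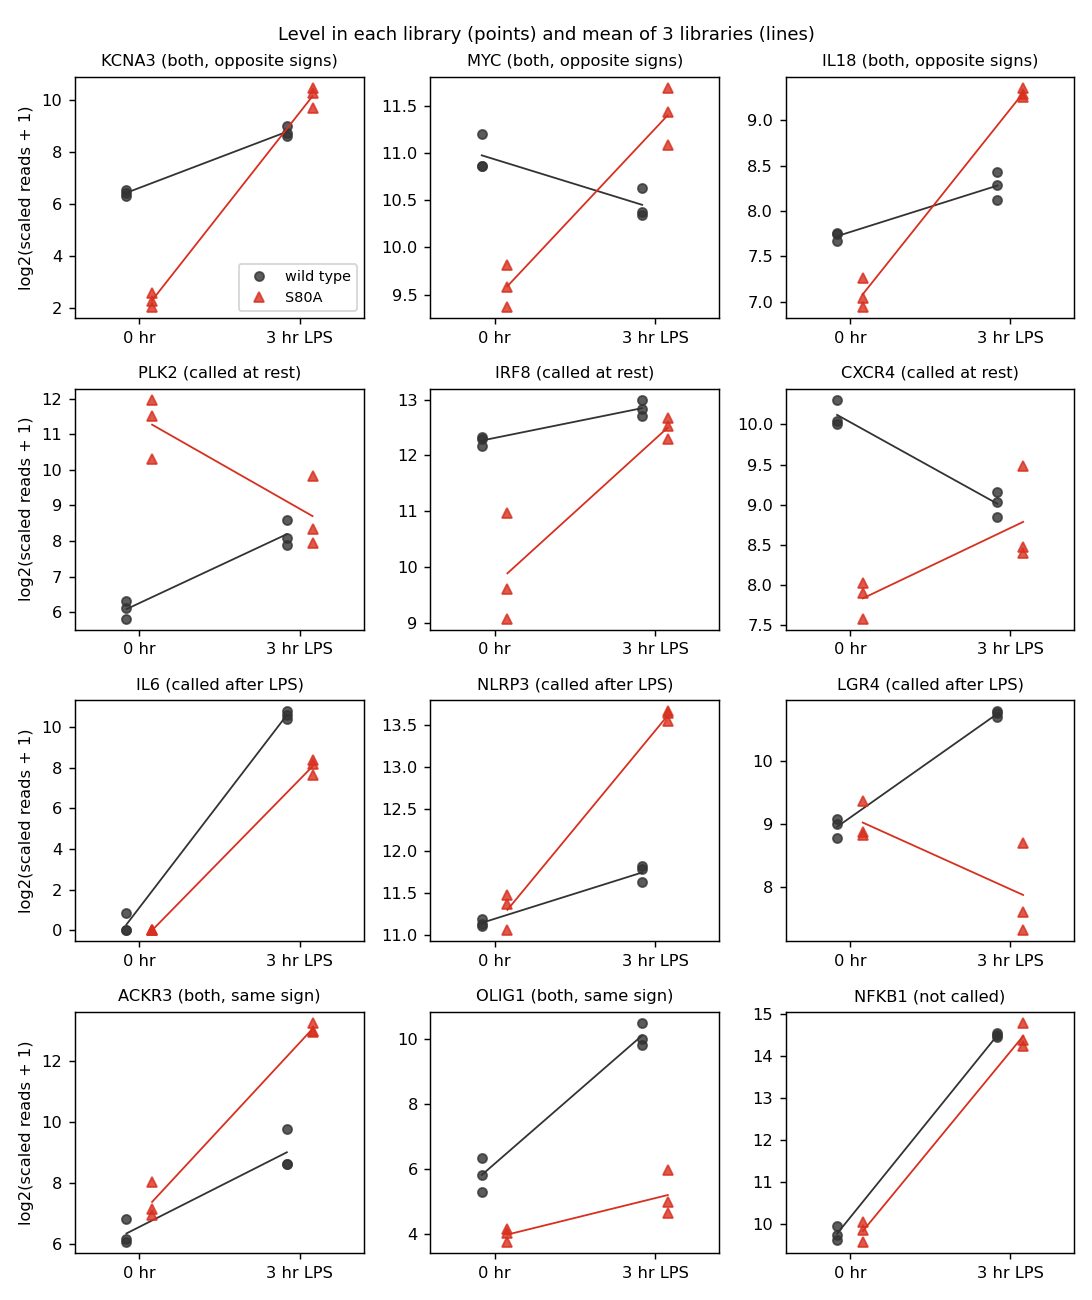
Level of 12 genes in each library, as log2(scaled reads + 1) on the y axis, at 0 hr and after 3 hr with LPS on the x axis, with circles for wild-type and triangles for S80A libraries and lines joining the means of 3 libraries. Lines cross for KCNA3, MYC and IL18, start apart and approach each other for PLK2, IRF8 and CXCR4, start together and part for IL6, NLRP3 and LGR4, widen for ACKR3 and OLIG1, and run together for NFKB1.

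Among the 113 genes traced to the resting level, the 70 with a lower response had a median difference of 1.73 log2 at rest and -0.07 after LPS, S80A minus wild type. SLAMF7, a surface receptor gene of macrophages and natural killer cells, was at 59.8, 78.0 and 45.2 scaled reads in wild-type and 496, 1296 and 1125 in S80A cells at rest. The levels after LPS were 2423, 5641 and 5782 and 2009, 2774 and 1909, which overlap, and the interaction was -4.86 ± 0.56 (adjusted p = 0.000631). PLK2, a stress-responsive kinase gene, was 40.5-fold higher in S80A cells at rest, with 1275, 2941 and 4011 against 78.8, 55.5 and 68.6. With LPS it rose to 385, 236 and 273 in wild-type and fell to 247, 322 and 900.4 in S80A cells, where the groups overlap (-4.68 ± 0.67, adjusted p = 0.00149). AMOTL2, a gene of the Hippo pathway, had 11.3, 13.7 and 14.5 at rest in wild-type and 85.7, 296 and 256 in S80A cells, and 230.2, 816 and 578 and 131, 789 and 392 after LPS (-4.21 ± 0.90, adjusted p = 0.0104). THBS1, the gene of the matrix protein thrombospondin, had 74.5, 83.7 and 82.3 and 274, 738 and 960.3 at rest, and the groups overlapped after LPS (-3.25 ± 0.77, adjusted p = 0.0165). STEAP4, a metalloreductase gene, passed as well (-3.63, adjusted p = 0.0477), but its call was lost in 11 of the 12 fits that left out 1 library, where the adjusted p reached 0.108. In all 5 genes S80A replicate 1 had the lowest S80A level at rest, and each call remained without that replicate at both times.

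The 43 genes with a higher response traced to rest had a median difference of -1.69 log2 at rest and 0.17 after LPS. IRF8, a transcription factor gene of the monocyte lineage, was at 5169, 5008 and 4625 scaled reads in wild-type and 2016, 783 and 540.5 in S80A cells at rest. It rose 5.24-fold to 5934, 6551 and 5004 in S80A cells, while wild-type cells reached 6682, 8176 and 7323, a change that was not called (2.03 ± 0.50, adjusted p = 0.0185, and 0.0503 without S80A replicate 2 at 0 hr). CXCR4, a chemokine receptor gene, had 1027, 1052 and 1264 in wild-type and 259, 238 and 191 in S80A cells at rest. The values came together after LPS, at 522, 458 and 573 and 715, 337 and 355, by a fall in wild-type and a rise in S80A cells (2.06 ± 0.37, adjusted p = 0.00474). P2RY2, a receptor gene for extracellular nucleotides, was 5.80-fold lower in S80A cells at rest and fell 4.31-fold in wild-type cells. After LPS it was at 707, 506 and 505 and 290.4, 469 and 415, which do not overlap, although that difference was not called (2.21 ± 0.55, adjusted p = 0.0208). Its call was lost without wild-type replicate 2 or 3 at 3 hr or S80A replicate 2 at 0 or 3 hr, with adjusted p-values of up to 0.0537. OSR2, an odd-skipped transcription factor gene, was at 117, 135 and 89.5 and 30.9, 17.1 and 15.7 at rest and at 149, 258 and 177 and 323, 199 and 149.9 after LPS (2.58 ± 0.49, adjusted p = 0.00586). DLL1, a Notch ligand gene, passed narrowly (adjusted p = 0.047), and its call was lost in 11 of the 12 fits without 1 library, with adjusted p-values of up to 0.0989.

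Of the 160 genes whose response was higher in S80A cells and traced to the level reached, 66 rose in both genotypes and 60 rose in S80A cells without a called change in wild-type cells. PIK3C2B, a lipid kinase gene, was at 288, 224 and 198 scaled reads in wild-type and 298, 222 and 134 in S80A cells at rest, which overlap. LPS took it down to 95.1, 61.2 and 46.0 in wild-type and up to 667, 811 and 998 in S80A cells (3.81 ± 0.46, adjusted p = 0.000631). EFNA1, an ephrin ligand gene, had 2 reads at rest over the 3 wild-type libraries and 1 over the 3 S80A libraries. The levels with LPS were 63.4, 10.4 and 16.1 in wild-type and 1065, 545 and 444 in S80A cells (4.90 ± 0.90, adjusted p = 0.00477). C2CD4A and C2CD4B, neighbouring genes on chromosome 15, had at most 8 reads at rest in each genotype. C2CD4A was at 1.18, 3.11 and 3.21 after LPS in wild-type and 65.0, 473 and 681 in S80A cells. C2CD4B was at 8.22, 8.30 and 10.7 and 103, 1139 and 1572, and in both genes S80A replicate 1 was the lowest S80A library. SFRP1, which encodes a secreted Wnt antagonist, was at 229, 173 and 172 and 521, 2112 and 2183 after LPS (3.76 ± 0.65, adjusted p = 0.00349). For genes with few reads at rest the size of the response is poorly determined. By edgeR the adjusted p of the interaction was 0.236 for EFNA1, 0.956 for C2CD4A and 0.591 for C2CD4B. The difference after LPS stands in the levels themselves.

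Among the 125 genes with a lower response traced to the level reached, 33 rose in wild-type cells without a called change in S80A cells, and 36 fell in S80A cells without a called change in wild-type cells. OXTR, the oxytocin receptor gene, was at 0.866, 2.41 and 4.03 scaled reads in wild-type and 1.99, 24.8 and 11.5 in S80A cells at rest. After LPS it was at 604, 365 and 467 in wild-type and 67.3, 27.6 and 25.2 in S80A cells, with no overlap (-5.30 ± 0.95, adjusted p = 0.00454). APOL3, an interferon-induced apolipoprotein gene, rose 21.4-fold in wild-type cells, from 22.5, 44.2 and 27.4 to 564, 722 and 730.1. It was at 22.9, 77.6 and 44.1 and 67.3, 48.3 and 31.2 in S80A cells before and after LPS (-4.30 ± 0.59, adjusted p = 0.00118). CCR7, the receptor gene that guides cells to lymph nodes, had 5 and 3 reads at rest over the wild-type and S80A libraries. The levels after LPS were 713, 417 and 508 and 39.2, 29.9 and 20.4 (-3.87 ± 0.71, adjusted p = 0.00477, and 0.0889 by edgeR). RHOH, a GTPase gene of blood cells, reached 307, 383 and 279 and 166, 97.8 and 34.8 from overlapping resting levels (-3.01 ± 0.80, adjusted p = 0.026), and its call was lost when wild-type replicate 2 or 3 at 0 hr, wild-type replicate 2 at 3 hr or S80A replicate 2 at 0 hr was left out, with adjusted p-values of up to 0.0678. LGR4, an R-spondin receptor gene, started at 438, 512 and 537 and 452, 465 and 659. It rose to 1654, 1738 and 1759 in wild-type and fell to 415, 158 and 193 in S80A cells (-2.94 ± 0.42, adjusted p = 0.00149).

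A difference in the same direction at both times grew or shrank with LPS for 61 genes. ACKR3, a chemokine-scavenging receptor gene, was at 110.0, 70.0 and 65.3 scaled reads in wild-type and 258, 122 and 141 in S80A cells at rest. It rose 6.72-fold to 864, 393 and 391 in wild-type and 49.2-fold to 7848, 8084 and 9696 in S80A cells (3.02 ± 0.49, adjusted p = 0.00282). C5AR2, a receptor gene for complement fragments, fell 3.35-fold in wild-type cells, from 314, 396 and 384 to 121, 90.3 and 115. It was at 1397, 2074 and 1796 and then 1266, 2916 and 3314 in S80A cells (2.15 ± 0.44, adjusted p = 0.00853). GABARAPL1, an autophagy gene, went from 230.4, 154 and 187 to 124, 141 and 128 in wild-type and from 391, 292 and 251 to 759, 917 and 954 in S80A cells (2.02 ± 0.31). USP53 and TMEM86A had interactions of 2.14 and 1.97 with adjusted p-values of 0.00868 and 0.00477. For TMEM86A both genotypes fell, 18.4-fold in wild-type and 4.81-fold in S80A cells.

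Lower responses in this class were of different kinds. OLIG1, a gene of a helix-loop-helix transcription factor, was lower in S80A cells at rest, at 16.9, 15.5 and 12.6 against 38.1, 55.5 and 80.7. The gap widened with LPS to 61.7, 31.1 and 24.0 against 902, 1027 and 1428, a rise of 2.59-fold against 19.3-fold (-3.07 ± 0.52, adjusted p = 0.00313). LINC00926, a non-coding RNA gene, behaved likewise (-1.96, adjusted p = 0.00477). FJX1, a secreted kinase-like factor gene, was 67.6-fold higher in S80A cells at rest, with 402, 942 and 1376 against 11.3, 14.5 and 14.5. LPS narrowed this to 6.53-fold, with 1363, 2674 and 3067 against 412, 340.5 and 335 (-3.19 ± 0.56, adjusted p = 0.00422). PHLDA3, a gene induced by p53, rose 1.74-fold in wild-type cells and fell 2.21-fold in S80A cells, where it stayed the higher of the genotypes (-1.99 ± 0.36, adjusted p = 0.00474). OSMR, the oncostatin M receptor gene, had 2.60, 0 and 3.23 at rest in wild-type and 141, 496 and 501 in S80A cells, and 15.3, 43.6 and 25.7 and 192, 609.6 and 502 after LPS. Its interaction (-3.19 ± 0.93, adjusted p = 0.0385) was lost in 7 of the 12 fits without 1 library, with adjusted p-values of up to 0.0952.

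For 630 genes (19.2% of all) both levels differed in the same direction and the interaction was not called. Such a difference is named kept from here on, which does not show that its size was the same at both times. The 630 genes outnumbered the 508 interactions, but not in every fit. There were 655 against 731 under a block across all groups, 597 against 645 at a pseudocount of 10 and 708 against 886 without S80A replicate 1 at both times. Of these 433 were higher and 197 lower in S80A cells, or 312 and 294 of 606 with TMM scaling. CDKN1A, a cell cycle inhibitor gene, was 4.11-fold higher in S80A cells at rest and 5.23-fold after LPS, with an interaction of 0.35 and a 95% interval of -0.17 to 0.87. ICAM1, the adhesion molecule gene, was at 641, 807 and 1127 and 2056, 4728 and 5632 scaled reads at rest and at 39270, 44450 and 43530 and 112800, 138700 and 129500 after LPS. Its interaction of -0.60 was not called (adjusted p = 0.36) but was without S80A replicate 1 at both times (-0.96, adjusted p = 0.0351, within a range of 0.0291 to 0.625 over the alternatives). TNFAIP3, the gene of the NF-κB inhibitor A20, was 2.75-fold higher at rest and 2.12-fold higher after LPS (interaction -0.33, interval -1.53 to 0.88). SERPINE2, a protease inhibitor gene, was 21.1-fold and 7.62-fold higher, and its interaction of -1.29 missed the threshold (adjusted p = 0.22). It passed in the blocked fit (0.00938), without S80A replicate 1 at 0 hr (0.0145) and without that replicate at both times (0.00081), within a range of 0.00081 to 0.413 over the alternatives.

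The remaining genes divide by which level was called without an interaction. For 273 genes the resting level alone was called and for 672 the level after LPS alone, and for 1198 (36.5%) no contrast was. In these genes a called and an uncalled level do not show that the response differed, since the interaction missed the threshold. IL1B is an example. It was at 90.9, 12.1 and 33.1 scaled reads in wild-type and 152, 1802 and 4669 in S80A cells at rest, and at 105900, 52260 and 51940 and 212200, 157300 and 153300 after LPS. The resting values spread over more than an order of magnitude within S80A cells, with replicate 1 the lowest, and the interaction was -3.60 ± 1.38 (adjusted p = 0.0942). It passed in the blocked fit (0.046), with S80A replicate 1 left out (0.00239), and by both edgeR (0.041) and DESeq2 (0.00451), within a range of 0.00239 to 0.194.

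The classes were also set against the κB consensus, the sequence that NF-κB dimers bind, in promoter windows from 250 bases before to 50 after each start in RefSeq on GRCh38.p14. A window was found for 1726 of the 3281 genes. A match on either strand was present in 267 of these (15.5%) and in 2317 of all 22114 windows in the table (10.5%). Among genes traced to the level reached, 17 of 94 with a higher response (18.1%) and 11 of 77 with a lower one (14.3%) had a match. Among genes traced to rest the shares were 3 of 13 (23.1%) and 5 of 33 (15.2%), and among genes without a called interaction 226 of 1460 (15.5%). Where both levels differed in opposite directions, 1 of 9 with a higher and 0 of 7 with a lower response had a match. Where they differed in the same direction, it was 3 of 17 and 1 of 12 (8.33%), and that 1 is FJX1. A match is a description of letters and not a bound site. As examples, matches are shown in capitals for IL6 and SELE, which rose from near 0 in both genotypes and differed in opposite directions after LPS, and for FJX1, whose resting difference narrowed. They lie on the plus strand at chr7:22727087-22727146, the minus strand at chr1:169734124-169734213 and the plus strand at chr11:35618316-35618407, before the start of the gene and written 5′ to 3′ along its strand, and the capitals of FJX1 span 3 overlapping matches:
IL6: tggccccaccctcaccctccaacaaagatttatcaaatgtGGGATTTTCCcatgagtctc
SELE: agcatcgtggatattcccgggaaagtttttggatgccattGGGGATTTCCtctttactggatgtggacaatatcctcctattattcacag
FJX1: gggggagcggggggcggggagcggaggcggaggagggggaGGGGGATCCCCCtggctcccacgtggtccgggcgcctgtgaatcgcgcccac

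Genes of bacterial sensing and the inflammasome had 5 called interactions among 20 listed members (25.0%, against 15.5% of all genes). All 5 were higher in S80A cells, against 7.92% of all genes with a higher one. Of 4 differences kept through LPS, 1 was higher and 3 were lower in S80A cells, with TMM scaling as well. After LPS 8 members were higher and 4 lower in S80A cells, or 8 and 6 with TMM scaling. Over all genes 31.2% were higher and 20.1% lower after LPS, or 809 and 846 of 3281 with TMM scaling. The median interaction was 0.36 log2, against 0.000391 over all genes. NLRP3, the sensor of the inflammasome, was at 2244, 2337 and 2209 scaled reads in wild-type and 2839, 2649 and 2128 in S80A cells at rest, which overlap. It rose 1.52-fold to 3611, 3525 and 3176 and 4.96-fold to 12770, 11970 and 12990 (1.72 ± 0.21, adjusted p = 0.000631). TLR2, the receptor gene for bacterial lipoproteins, reached 4190, 3935 and 4661 in wild-type and 12850, 13140 and 12210 in S80A cells from overlapping resting levels (1.44 ± 0.33, adjusted p = 0.0149). Its partners TLR1 and TLR6 were higher in S80A cells at both times. TLR1 fell 2.16-fold in wild-type cells and stayed at 1075, 1266 and 1036 in S80A cells, near its resting 882, 1053 and 1297 (1.19 ± 0.27, adjusted p = 0.0137), and TLR6 fell 3.75-fold and 1.46-fold (1.34). RIPK2, the kinase gene downstream of NOD receptors, was the fifth (1.11). No lower interaction was called by limma (none at an unadjusted p under 0.05 either, and none by edgeR or DESeq2), the blocked fit called 7 higher, and without S80A replicate 1 there were 7 higher and 1 lower. IRAK2, a kinase gene of TLR signalling, was 2.55-fold higher in S80A cells at rest and 2.18-fold after LPS, with an interaction of -0.06 (-1.17 to 1.05).

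Of 23 listed NF-κB subunits and feedback regulators, 4 had a called interaction (17.4%, near the 15.5% of all genes), 2 higher and 2 lower. No contrast at all was called for 12, against 36.5% of all genes. The median interaction was -0.08 log2. NFKB2, the precursor gene of the p52 subunit, was at 309, 352 and 409.8 and 387, 668 and 684 scaled reads at rest. It rose 39.1-fold to 12780, 14820 and 14260 in wild-type and 15.5-fold to 10710, 8669 and 7641 in S80A cells (-1.30 ± 0.32, adjusted p = 0.0182, and 0.0503 without S80A replicate 2 at 0 hr). MAP3K8, a kinase gene whose product is held by p105, rose 36.2-fold and 13.6-fold (-1.48 ± 0.32, adjusted p = 0.0109). NFKBIZ, an atypical IκB gene, was 2.46-fold lower in S80A cells at rest and rose 22.8-fold in wild-type and 79.6-fold in S80A cells (1.68). TNIP2, an inhibitor gene, had 0.79 (adjusted p = 0.0259), and its call was lost in 6 of the 12 fits without 1 library (up to 0.0709) and with TMM scaling. The blocked fit called 2 higher and 3 lower, and without S80A replicate 1 it was 2 higher and 7 lower.

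Immediate early transcription factors were called different more often at rest than after LPS. Of 32 listed members 15 were higher and 3 lower in S80A cells at rest, and 10 higher and 2 lower after LPS, or 8 and 3 with TMM scaling. Of all genes 22.5% were higher and 11.4% lower at rest, and 31.2% and 20.1% after LPS. Interactions were called for 5 members (15.6%, near the 15.5% of all genes). They were higher for MYC and FOSL2 and lower for KLF4, JUN and ATF3. FOSL2, a subunit gene of the AP-1 factor, was at 2200, 2254 and 2238 and 2512, 1952 and 2195 at rest and rose 3.53-fold to 7865, 7447 and 8307 and 9.85-fold to 28960, 20170 and 16450 (1.45 ± 0.27, adjusted p = 0.00557). JUN was 3.30-fold higher in S80A cells at rest and 1.56-fold after LPS (-1.05), and ATF3 5.95-fold and 1.82-fold, where the second difference was not called. With the replicate block within genotype the counts were 5 higher and 6 lower, and leaving out S80A replicate 1 gave 5 and 7.

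Of 22 listed feedback inhibitors of signalling and mRNA decay, 9 kept a difference through LPS, against 19.2% of all genes. In S80A cells 8 of the 9 were higher, or 6 of 7 with TMM scaling. Over all genes 433 of 630 kept differences were higher, or 312 of 606 with TMM scaling. Interactions were called for 5 (22.7%, against 15.5% of all genes), higher for IL10 and CCRN4L and lower for DUSP1, DUSP5 and ZC3H12A. DUSP1 and DUSP5, phosphatase genes that limit MAP kinases, were 3.95-fold and 9.52-fold higher in S80A cells at rest. They rose 24.4-fold and 63.7-fold in wild-type and 11.8-fold and 8.86-fold in S80A cells. ZC3H12A, the gene of the mRNA-degrading enzyme Regnase-1, was at 193, 199.5 and 229.9 and 247, 306 and 325 at rest. It reached 14550, 13760 and 12750 and 11770, 8310 and 7897 (-1.06 ± 0.26, adjusted p = 0.0183). RGS16, which dampens G-protein signals, was 9.72-fold and 5.41-fold higher in S80A cells, and its interaction of -0.83 (adjusted p = 0.258) passed in the blocked fit (0.0188). Counts in the blocked fit were 3 higher and 6 lower, and without S80A replicate 1 there were 5 and 7.

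Inflammatory cytokines and growth factors had 6 called interactions among 23 listed members (26.1%, against 15.5% of all genes), 4 of them lower in S80A cells. IL6, a pyrogenic cytokine gene, had 1 read over the wild-type and none over the S80A libraries at rest. The levels with LPS were 1525, 1733 and 1356 scaled reads in wild-type and 333, 285 and 197 in S80A cells, 5.66-fold lower, with no overlap. The interaction was -2.24 ± 0.44 (adjusted p = 0.00721), and for it edgeR and DESeq2 gave adjusted p-values of 0.742 and 0.502. IL12B, a subunit gene of interleukins that direct T cells, had no reads at rest in either genotype and was at 906, 617 and 537 and 314, 28.8 and 37.2 after LPS. S80A replicate 1 was the highest of the S80A libraries, and the call (-3.24 ± 0.95, adjusted p = 0.0388) was lost in 10 of the 12 fits without 1 library, with adjusted p-values of up to 0.0845. IL27, a regulatory cytokine gene, was at 150.3, 271 and 248 and 17.9, 24.1 and 6.0 after LPS (-3.51), and LTA, a member of the TNF family, had -2.69 with neither level called. In the other direction, CSF2, the gene of the growth factor GM-CSF, went from no reads in both genotypes to 37.6, 6.23 and 4.28 in wild-type and 122, 430.2 and 552 in S80A cells. This is at least 18.5-fold in wild-type and at least 393-fold in S80A cells with 3 reads per group as the floor (4.76 ± 0.98, adjusted p = 0.00868, and 0.206 by DESeq2). The blocked fit called 3 higher and 8 lower, and without S80A replicate 1 there were 3 and 7.

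Chemokines had 5 called interactions among 19 listed members (26.3%, against 15.5% of all genes), higher for CXCL2, CXCL6 and CCL22 and lower for CCL7 and CCL19. CXCL6, another neutrophil attractant, was at 2.60, 4.02 and 5.65 and 0, 0 and 3.15 scaled reads at rest and at 41.1, 23.9 and 38.5 and 57.2, 102 and 101 after LPS. Its values overlapped at rest, where S80A libraries held 3 reads, and did not overlap after LPS. Its class was thus narrowly set, with a limma adjusted p of 0.0323 at rest and 0.0572 after LPS. Its interaction of 2.91 ± 0.75 (adjusted p = 0.023) was lost in 4 fits, without wild-type replicate 3 at 0 hr or 2 at 3 hr or S80A replicate 2 at 0 or 3 hr (up to 0.063). CCL22, which attracts regulatory T cells, went from 76.2, 68.4 and 73.4 to 366, 122 and 142 and from 38.8, 39.6 and 43.0 to 289, 468 and 470.0 (1.93 ± 0.50, adjusted p = 0.024). Wild-type replicate 1 was the highest wild-type library after LPS and lay within the S80A range, and the call was lost in 7 of the 12 fits (up to 0.0637). CCL19, a ligand of CCR7, was at 52.9, 73.7 and 74.9 and 16.8, 2.3 and 3.60 after LPS (-2.62), and CCL7 was at 10.6, 11.4 and 11.8 and 1.12, 5.75 and 4.80 (-3.14, with neither level called). IL8 (CXCL8) was at 38910, 20790 and 23470 and 95630, 82650 and 111600 after LPS, which do not overlap, and at 27.9, 131 and 696 at rest in S80A cells, a wide spread, and no contrast was called (interaction -0.36, interval -2.95 to 2.24). With the replicate block within genotype the counts were 3 higher and 4 lower, and without S80A replicate 1 there were 3 and 5.

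Interferon beta and interferon-stimulated genes were called at a share below that of all genes, 4 of 51 (7.84%, against 15.5%). The interaction was higher for IRF4 and IRF8, both transcription factor genes, and lower for APOL3 and GBP4. No contrast was called for 31 of the 51, against 36.5% of all genes. At rest 3 were higher and 13 lower in S80A cells, and after LPS 3 and 5, or 3 and 17 and then 2 and 19 with TMM scaling. Over all genes 22.5% were higher and 11.4% lower at rest, and 31.2% and 20.1% after LPS. With TMM scaling these were 561 and 512 of 3281 genes at rest, and 809 and 846 after LPS. IRF4 had 3 reads in each genotype at rest and reached 12.9, 14.5 and 22.5 scaled reads in wild-type and 129, 357 and 188 in S80A cells (3.67 ± 0.84, adjusted p = 0.0143, and 0.183 by edgeR). GBP4, a guanylate-binding protein gene, was 4.70-fold higher in S80A cells at rest, and the groups overlapped after LPS (-2.02). IFIT2, an interferon-induced antiviral gene, was at 37000, 50650 and 47770 and 49510, 38960 and 14320 after LPS with an interaction of 0.42 (-1.18 to 2.03). Counts in the blocked fit were 3 higher and 3 lower.

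**Figure D4:**
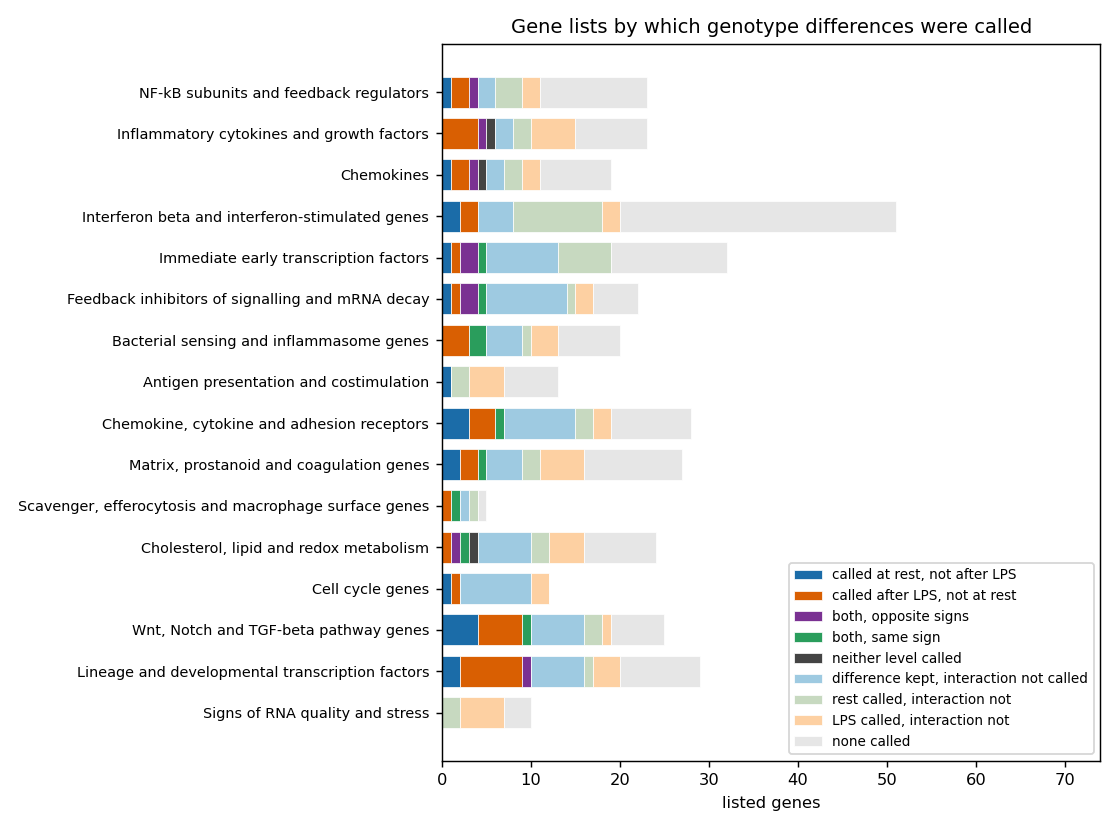
Number of listed genes (x axis) in each gene list with at least 5 of them (y axis), divided by which contrasts were called: the 5 classes of called interactions, differences kept through LPS, and genes with a called level or no called contrast and no interaction. The interferon list has 4 interactions among 51 genes, and the list of Wnt, Notch and TGF-beta pathway genes has 10 among 25.

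Receptors for chemokines, cytokines and adhesion had 7 called interactions among 28 listed members (25.0%, against 15.5% of all genes), 6 higher and 1, that of CCR7, lower. SELE, the gene of the adhesion molecule E-selectin, had no reads in any library at rest. After LPS it was at 14.1, 5.19 and 4.28 scaled reads in wild-type and 277, 359 and 421 in S80A cells, 44.8-fold higher and with no overlap. The rise was at least 9.26-fold in wild-type and at least 379-fold in S80A cells (5.46 ± 0.57, adjusted p = 0.000438, 0.0193 by DESeq2 and 1 by edgeR). IL2RA, a subunit gene of the IL-2 receptor, also started at 0 and reached 23.5, 25.9 and 17.1 and 48.2, 101 and 67.1 (1.61). For IL6R, whose product binds IL-6, the resting level was 2.00-fold lower in S80A cells and wild-type cells fell 2.46-fold with LPS (1.60). The resting level was the lower one in S80A cells for CXCR4 too, and for IL1R2, a decoy receptor gene at 14.7, 7.24 and 15.3 and 0, 2.33 and 3.15 at rest (2.57). A further 8 members kept a difference, all higher in S80A cells, against 6 of 7 with TMM scaling. Over all genes 19.2% kept one, and 433 of those 630 were higher, or 312 of 606 with TMM scaling. The blocked fit called 8 higher and 3 lower, and without S80A replicate 1 it was 8 and 6.

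Matrix, prostanoid and coagulation genes had 5 called interactions among 27 listed members (18.5%, near the 15.5% of all genes). PDGFB, a growth factor gene for connective tissue cells, was at 6.93, 15.3 and 14.5 and 17.9, 10.1 and 16.8 scaled reads at rest. LPS took it 7.71-fold up to 122, 54.0 and 107 in wild-type and 87.3-fold up to 851, 1424 and 1637 in S80A cells (3.50 ± 0.57, adjusted p = 0.0028). PLAU, the gene of the plasminogen activator urokinase, was 1.62-fold higher in S80A cells at rest. It was 6.37-fold higher after LPS, at 40820, 24470 and 23230 against 6279, 3976 and 3650 (1.96 ± 0.35, adjusted p = 0.00468). Lower interactions were those of THBS1, of THBD, the gene of thrombomodulin (-1.51), and of MMP12, a macrophage elastase gene (-3.26). With the replicate block within genotype the counts were 3 higher and 5 lower, and without S80A replicate 1 there were 2 and 10.

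Genes of antigen presentation and costimulation had 1 called interaction among 13 listed members (7.69%, against 15.5% of all genes), the lower one of SLAMF7. No higher one was called (none at an unadjusted p under 0.05 and none by edgeR, but 1 by DESeq2). CD83, a marker gene of mature dendritic cells, was at 14710, 13250 and 14850 and 27010, 18850 and 18440 scaled reads after LPS with an interaction of 0.46 (-0.12 to 1.04). CD48 missed the threshold (-2.16, adjusted p = 0.0979). It passed without S80A replicate 1 at both times (-3.27, 0.00361), within a range of 0.00361 to 0.231. SLAMF1 missed it too (1.79, adjusted p = 0.154) and passed by DESeq2 alone (4.56, 0.0249). Both genes were at 12.1 scaled reads or fewer in each library at rest. Of 5 listed scavenger and efferocytosis genes, MERTK, a receptor gene for the uptake of apoptotic cells, was higher in S80A cells at both times, and the gap grew. MERTK fell 11.7-fold in wild-type cells, from 857, 826 and 1014 to 81.0, 65.4 and 84.6, and 4.38-fold in S80A cells, from 1826, 2539 and 1978 to 423, 460.1 and 566 (1.41 ± 0.27, adjusted p = 0.00661). NRROS, which restrains reactive oxygen production, fell 1.51-fold and 5.78-fold (-1.93 ± 0.29, adjusted p = 0.00183). FCGR3A was not called (1.15, interval -0.14 to 2.45, adjusted p = 0.199), nor in any alternative. DAB2, an endocytic adaptor gene, was 4.34-fold higher in S80A cells at rest and 7.14-fold after LPS. Its interaction was not called (0.69, interval -0.24 to 1.61, adjusted p = 0.283) but was with a block across all groups (0.04, within a range of 0.04 to 0.515).

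Of 24 listed genes of cholesterol, lipid and redox metabolism, 4 had a called interaction (16.7%, near the 15.5% of all genes). The median interaction was 0.67 log2, against 0.000391 over all genes. ABCA1, the cholesterol exporter gene, was at 1080, 1178 and 1388 and 1436, 1576 and 1432 scaled reads at rest and at 1518, 2209 and 1932 and 4660, 5721 and 3859 after LPS (1.04 ± 0.27, adjusted p = 0.0238). Its call was lost without wild-type replicate 2 or 3 at 0 hr or S80A replicate 2 at 3 hr (up to 0.0695). SQLE, a gene of cholesterol synthesis, rose 2.55-fold in S80A cells, from 4026, 8104 and 9032 to 10520, 20670 and 22690, while wild-type cells held 2400, 2578 and 2475 and then 2826, 2044 and 2081 (1.47). GCLC, the gene of the enzyme that starts glutathione synthesis, fell 5.72-fold and 2.31-fold (1.39, adjusted p = 0.0461), with the call lost in 9 of 12 fits without 1 library (up to 0.111). SOD2, a mitochondrial antioxidant gene, had an interaction of 0.05 (-0.80 to 0.90). Counts in the blocked fit were 6 higher and 1 lower, and without S80A replicate 1 there were 7 and 3. With TMM scaling 2 were higher and 1 lower.

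Cell cycle genes differed mostly at both times. Of 12 listed members 8 kept a difference through LPS, 6 of them lower in S80A cells, with TMM scaling as well. Over all genes 19.2% kept one, and 197 of those 630 were lower, or 294 of 606 with TMM scaling. AURKA, a mitotic kinase gene, was 3.1-fold lower in S80A cells at rest, at 575, 459.9 and 465 against 1767, 1397 and 1484 scaled reads. It was 5.34-fold lower after LPS, at 325, 140.3 and 162 against 1486, 909 and 957, with an interaction of -0.85 (adjusted p = 0.174). That interaction was called with a block across all groups (0.046), without S80A replicate 1 at 3 hr (0.0148) and without it at both times (-1.11, 0.0203), within a range of 0.0148 to 0.333 over the alternatives. PLK2 had a lower interaction and E2F7, a repressor gene of the cycle, a higher one. These were the 2 called interactions of the list (16.7%, near the 15.5% of all genes). E2F7 rose 2.14-fold in wild-type and 7.99-fold in S80A cells (2.00 ± 0.50, adjusted p = 0.0207), and its call was lost without wild-type replicate 1 at 0 hr or 2 at 3 hr (up to 0.055). Without S80A replicate 1 there were 1 higher and 5 lower interactions.

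Wnt, Notch and TGF-beta pathway genes had 10 called interactions among 25 listed members (40%, against 15.5% of all genes), 3 higher and 7 lower. Their median interaction was -0.78 log2. The list was drawn up with earlier results of these data known, so the share of 40% is no separate support. FZD4 and FZD7, Wnt receptor genes, were 14.8-fold and 13.3-fold higher in S80A cells at rest. FZD4 rose 2.73-fold in wild-type and fell 3.49-fold in S80A cells, to overlapping levels of 85.7, 168 and 111 and 101, 225 and 243 scaled reads (-3.20 ± 0.53, adjusted p = 0.00301). FZD1, of the same family, had a higher interaction (0.87) that came from the level reached. WNT5B, a Wnt ligand gene, rose 5.66-fold in wild-type and fell 2.41-fold in S80A cells (-3.61, adjusted p = 0.00639). DKK2, a secreted Wnt inhibitor gene, and the receptor genes TGFBR2 and TGFBR3 had -1.02, -0.99 and -2.41. Of the 10, 4 were traced to rest, 5 to the level reached and 1 to both. SMAD7, an inhibitor gene of TGF-beta signals, missed the threshold (-0.76, adjusted p = 0.0553) and passed in the blocked fit (0.038).

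Lineage and developmental transcription factors had 10 called interactions among 29 listed members (34.5%, against 15.5% of all genes). Of these, 4 were higher and 6 lower, and 7 were traced to the level reached. NR5A2, a nuclear receptor gene, had 4.33, 0.804 and 1.61 scaled reads in wild-type and 112, 208 and 350.5 in S80A cells at rest. The levels met after LPS, at 38.8, 37.4 and 21.4 and 41.5, 12.7 and 44.4 (-6.23 ± 0.79, adjusted p = 0.00101). ZEB2 went from 5165, 5795 and 6131 to 6400, 7574 and 7544 in wild-type and from 3837, 2290 and 2650 to 11510, 10650 and 10880 in S80A cells (1.61 ± 0.26, adjusted p = 0.00282). RUNX1, a haematopoietic factor gene, reached 3841, 4533 and 4582 and 9199, 9330 and 8601 from overlapping resting levels (1.26 ± 0.21, adjusted p = 0.00291). FOXO1, a factor gene of metabolic and survival control, fell 2.17-fold in wild-type cells but rose 4.79-fold in S80A cells, and WT1 rose 1.67-fold and 8.85-fold (3.21 and 2.35). Lower interactions beside NR5A2 were those of ETV5, POU2F2, SOX12, LYL1 and TCF4, from -1.45 to -1.03. RXRA, a nuclear receptor gene, was not called (0.29, -0.17 to 0.75).

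None of the 10 listed signs of RNA quality and stress had a called interaction by limma, although 2 higher and 1 lower had an unadjusted p under 0.05, edgeR called none, DESeq2 called 1 in each direction and so did the blocked fit. GADD45B, a stress-induced gene, was the nearest (interaction 0.90, adjusted p = 0.05, 0.0207 in the blocked fit), and GADD45A passed in the blocked fit too (-0.79, 0.0421). After LPS 3 of the 10 were higher and 2 lower in S80A cells, or 1 and 4 with TMM scaling, among them the nuclear RNA MALAT1 at 3108, 2455 and 2334 against 1023, 1408 and 1049 scaled reads. Over all genes 31.2% were higher and 20.1% lower after LPS. The part of RNA quality in the differences after LPS was not tested. CD79B, the B cell marker, had an interaction of -0.02 (-1.37 to 1.34), and of the 2 listed myeloid precursor genes CD38 had 0.56 and CD34 0.29, neither called nor at an unadjusted p under 0.05.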

How the data were processed

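RNA-seq was deposited as 2 tables of genes that changed with LPS, 1 per genotype, each with all 12 libraries, and every gene in them passes 0.01 on the authors' adjusted p and 1 on their absolute log2 fold change. Per the submitters' processing notes the tools were FastQC, HISAT, StringTie, Cuffdiff, HTSeq and DESeq2 on GRCh38. For versions, annotation and strand the sources used here give nothing, so reads of overlapping or antisense genes cannot be told apart. The deposited signal values are counts of reads on a gene over the library's size factor (0.834 to 1.29), and 100.0% of them came out as whole reads within 0.01 reads. The authors' deposited log2 fold changes and p-values served only to choose the genes.

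The union of the tables was fitted on log2(scaled reads + 1) with limma 3.58.1 (moderated, with a trend, R 4.3.3), 4 group means, and Benjamini-Hochberg adjustment over the 3281 genes for each contrast. Folds are ratios of group means of scaled reads, and a fold from 0 reads is a lower bound against 3 reads over the group. A fold, a level and a difference on the log2(value + 1) scale are different quantities, and the last understates changes of low genes. Errors after ± are SE and intervals are 95%. Genes are named by a rule: NFKB1, the 5 with the largest absolute interaction in each class and direction at a mean of at least 100 scaled reads, and in each list the 3 with the smallest p and the most abundant gene not called. Other genes that complete a list's count were named after their values were seen, namely ATF3, CCL19, CCL7, CD14, CD163, DKK2, DUSP1, DUSP5, ETV5, FOXO1, FZD1, FZD7, GBP4, IL1R2, IL27, IL2RA, IL6R, JUN, LTA, LYL1, MMP12, NFKBIZ, POU2F2, RIPK2, SOX12, SQLE, TCF4, TGFBR2, TGFBR3, THBD, TLR6, WNT5B and WT1. The genes, the lists and the classes were chosen with earlier results of these data known.

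Within each genotype, libraries with the same replicate number at 0 and 3 hr deviated together (correlations of deviations 0.218 to 0.407 in wild-type and 0.205 to 0.384 in S80A cells), and each correlated best with its own number, so the block within genotype pairs them. That pairing comes from the data and not from a label. Across genotypes, libraries at 0 hr also correlated best with their own number (0.212, 0.317 and 0.308). After LPS this held for replicates 1 and 2 (0.185 and 0.253) and not for replicate 3. The main fit has no block, and the block across all groups allows for a shared replicate effect. Alternatives were other pseudocounts, a filter, TMM scaling, edgeR 4.0.16 and DESeq2 1.42.0 on the recovered reads, blocks, no trend, a fold threshold and libraries left out. The fit was also run on simulated counts, drawn for each library apart and so without the pairing seen here. No result of that run is used. Promoters and their sequences are from RefSeq on GRCh38.p14. The result of 1 gene is not reported here.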

Additional observations from a re-analysis of the deposited data

Results flagged for a closer look

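Among the 96 genes named by rule, the test of the difference itself (limma, adjusted p under 0.05) called 69 interactions. The response was higher in S80A cells for 40 and lower for 29. The rule picked many of these genes for a called interaction or a small p, so the counts follow from that choice. Over all 3281 genes the share called was 15.5%. Counts of calls kept in other fits, given last, describe these picked genes. The values that follow are interactions in log2(scaled reads + 1). For genes whose genotypes were called different at rest and not after LPS, the response was higher in S80A cells for CXCL6 at 2.91, OSR2 at 2.58, P2RY2 at 2.21, CXCR4 at 2.06, IRF8 at 2.03 and DLL1 at 1.93. Values of CXCL6 nevertheless overlapped at rest, at 15 and 3 reads over the wild-type and S80A libraries, and not after LPS. In the same class, the response was lower in S80A cells for NR5A2 at -6.23, SLAMF7 at -4.86, PLK2 at -4.68, AMOTL2 at -4.21, STEAP4 at -3.63, THBS1 at -3.25 and FZD4 at -3.20. For genes called different after LPS and not at rest, the response was higher in S80A cells for SELE at 5.46, C2CD4A at 5.41, EFNA1 at 4.90, CSF2 at 4.76, C2CD4B at 4.46, PIK3C2B at 3.81, SFRP1 at 3.76, IRF4 at 3.67, PDGFB at 3.50, E2F7 at 2.00, CCL22 at 1.93, NLRP3 at 1.72, FOSL2 at 1.45, TLR2 at 1.44, RUNX1 at 1.26, ABCA1 at 1.04 and TNIP2 at 0.79. In the same class, the response was lower in S80A cells for OXTR at -5.30, APOL3 at -4.30, CCR7 at -3.87, IL12B at -3.24, RHOH at -3.01, LGR4 at -2.94, IL6 at -2.24, NRROS at -1.93, MAP3K8 at -1.48 and ZC3H12A at -1.06. For genes that differed at both times in opposite directions, the response was higher in S80A cells for KCNA3 at 5.49, CCRN4L at 3.35, IL10 at 2.97, CXCL2 at 2.65, ABTB2 at 2.52, MYC at 2.34, IL18 at 1.66 and ZEB2 at 1.61. In the same class, the response was lower in S80A cells for SHROOM3 at -5.03, SLC2A3 at -2.63, LINC01137 at -2.32, LFNG at -2.12, BMP2K at -2.09, KLF4 at -1.89 and NFKB2 at -1.30. For genes that differed at both times in the same direction, the response was higher in S80A cells for ACKR3 at 3.02, C5AR2 at 2.15, USP53 at 2.14, GABARAPL1 at 2.02, TMEM86A at 1.97, PLAU at 1.96, MERTK at 1.41 and TLR1 at 1.19. In the same class, the response was lower in S80A cells for OSMR at -3.19, FJX1 at -3.19, OLIG1 at -3.07, PHLDA3 at -1.99 and LINC00926 at -1.96. With neither level called, the response was higher in S80A cells for GCLC at 1.39. Each of the 69 kept its call without S80A replicate 1 at both times and in both blocked fits, 58 kept it by edgeR, 64 by DESeq2 and 66 with TMM scaling, and 54 kept it with each single library left out.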

How the results depend on the processing

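The 508 called interactions kept their sign in every fit that tested them, and counts moved more than signs. Tested over genes of both tables alone, interactions were 44 higher and 34 lower, resting differences 351 and 143, differences after LPS 439 and 202, and the classes held 19 genes from rest, 38 from the level reached, 21 with both levels different and 0 with neither, beside 311 differences kept (fewer genes were tested). Without S80A replicate 1 at both times, 426 were higher and 460 lower, with 189 from rest and 313 with both levels different. With a replicate block within genotype 394 were higher, and with a replicate block across all groups 199 had both levels different. Both levels differed for 181 by DESeq2 and 52 at 1 log2 or more. Neither level was called for 6 with the filter at a mean of 20, 6 by edgeR, 7 without the trend, 25 with the 6 libraries of each time fitted apart and 55 at 1 log2 or more. Leaving out 1 library gave 153 to 367 higher and 128 to 354 lower interactions, 525 to 849 higher and 278 to 446 lower at rest, 871 to 1076 and 508 to 698 after LPS, 50 to 160 genes from rest, 161 to 363 from the level reached, 47 to 219 with both, 1 to 12 with neither, and 506 to 677 kept. The causes were not tested. Of the 508 calls 388 were made by edgeR, which made 409, and 450 by DESeq2, which made 646. Signs reversed for uncalled genes near 0: IRAK2 at 0.041 with a pseudocount of 10, SOD2 at -0.0056 with TMM, and CD34 at -0.013 by DESeq2. Without S80A replicate 1 at both times IFIT2 was at -0.14, SOD2 at -0.42, CD79B at 0.16 and DNAJA1 at -0.078. With 1 library left out, values ran from -0.24 to 0.031 for NFKB1, -0.82 to 0.031 for TNFAIP3, -1.49 to 0.81 for IL8, -0.58 to 0.33 for IRAK2, -0.25 to 0.32 for SOD2, -0.18 to 0.72 for CD34, -0.32 to 1.26 for CD38, -0.44 to 0.29 for CD79B and -0.052 to 0.21 for DNAJA1. The block within genotype gave a call to IL1B, RGS16, SERPINE2, SMAD7, GADD45B and GADD45A, which had none, and took none from the 69 named genes with one. The interaction was not called by edgeR for EFNA1, C2CD4A, C2CD4B, CCR7, CSF2, IL12B, IL6, IRF4 and SELE, which had few reads at rest. The part of depth in this was not tested.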
